A study of Mus musculus with 2 samples.

Results

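The genes described encode subunits of the proteasome and of its immune form, their activators and the chaperones that assemble them. They are all rows of the deposited expression table whose Entrez identifier maps to a symbol made of Psma, Psmb, Psmc, Psmd, Psme, Psmf or Psmg and a number. There were 46 such genes among 13030 annotated genes and 24440 features in all. The 46 comprise 7 alpha and 7 constitutive beta subunits of the core, 5 immunoproteasome genes, 6 ATPases and 11 other subunits of the 19S particle, 3 chaperones of 19S assembly, 4 chaperones of core assembly, and 3 further activators or inhibitors. All 46 passed the filter on low values (at least 1 FPKM in either library), and 31 of them, the alpha, beta, ATPase and other 19S subunits, are called constitutive below.

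The proteasome is the barrel-shaped protease that degrades proteins tagged with ubiquitin. Its 20S core is built of stacked rings of alpha and beta subunits, and 3 beta subunits (encoded by Psmb5, Psmb6 and Psmb7) cut peptide bonds. A 19S particle with a ring of ATPases and a lid recognises, unfolds and feeds in the substrates. In lymphocytes and in cells exposed to interferon, the catalytic subunits encoded by Psmb8, Psmb9 and Psmb10 are built into new cores in place of Psmb5, Psmb6 and Psmb7, and the activator ring PA28 (Psme1 and Psme2) can cap the barrel. This form, the immunoproteasome, yields peptides that fit MHC class I molecules well.

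The RNA was taken from CD4+ T cells (strain C57BL/6, genotype wild type, age 6 to 8 weeks) after 48 h of culture under conditions that drive differentiation into T helper 17 (Th17) cells. One culture held wild-type antigen presenting cells (WT-APCs), and the other held antigen presenting cells transgenic for OX40L (OX40L-TG APCs), the ligand of the costimulatory receptor OX40. The sources used here do not give the promoter of the transgene, the kind of APC or the number of mice behind each culture. Each condition had 1 library, called the WT-APC and the OX40L-TG-APC library. No difference below therefore has a replicate check, and each statement compares these libraries and not the conditions.

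Values are FPKM, fragments counted per length of transcript and per library size, so levels of different genes can be set side by side. The depth, estimated from the steps between low values, was about 22462681 fragments (WT-APC) and 25738918 fragments (OX40L-TG-APC). Ratios are OX40L-TG-APC over WT-APC and carry a 95% exact interval that covers counting error only. The change of a gene is the log2 of that ratio after 1 FPKM was added to both values. Its median over the 10627 annotated genes that passed the filter was 0.11, so the middle gene stood slightly higher in the OX40L-TG-APC library. All 8 T cell markers were present, with a summed level of 1818 FPKM in the WT-APC library and 1847 FPKM in the OX40L-TG-APC library. Singly they went both ways. The change was below 0 for Cd28 (ratio 0.653) and Cd3e (ratio 0.882) and above 0 for 6, of which Cd4 was highest (ratio 1.22). With library totals set equal, 7 of the 8 lay below 0. In all 8 B cell markers the value was lower in the OX40L-TG-APC library, with sums of 52.8 and 22.6 FPKM. Of the 7 monocyte and macrophage markers 3 passed the filter, and of the 6 dendritic cell markers 1 did. The 7 summed to 10.52 and 3.68 FPKM, and the 6 to 4.79 and 2.15 FPKM, with Clec9a and Siglech listed at 0 in the OX40L-TG-APC library. In RNA from a mixed culture, fewer cells of a type and less RNA per cell cannot be told apart.

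The 300-base promoters (250 bases before and 50 after the start site) of Psmb9 and Psmb8, the members with the largest difference, are shown with those of Psmb6 and Psmb5, whose products they replace. They come from RefSeq, build GRCm38.p6, and run 5′ to 3′ on the gene's strand. Psmb9 is at chr17:34187281-34187580 (minus strand), Psmb8 at chr17:34197945-34198244 (plus), Psmb6 at chr11:70525107-70525406 (plus) and Psmb5 at chr14:54617946-54618245 (minus). Capitals mark matches to 5 motifs searched on both strands: TGACNNNGC (core of the antioxidant response element), GAAA, any 2 bases and GAAA (core of the interferon-stimulated response element), TTCNNNGAA (gamma-activated site), CCAAT (NF-Y box) and the NF-kB consensus site.
Psmb9: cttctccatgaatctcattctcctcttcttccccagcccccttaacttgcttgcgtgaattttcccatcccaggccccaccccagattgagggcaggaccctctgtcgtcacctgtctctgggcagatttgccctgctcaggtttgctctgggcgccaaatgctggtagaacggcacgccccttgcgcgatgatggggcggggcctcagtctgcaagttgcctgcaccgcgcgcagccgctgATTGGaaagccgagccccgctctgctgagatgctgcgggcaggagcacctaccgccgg
Psmb8: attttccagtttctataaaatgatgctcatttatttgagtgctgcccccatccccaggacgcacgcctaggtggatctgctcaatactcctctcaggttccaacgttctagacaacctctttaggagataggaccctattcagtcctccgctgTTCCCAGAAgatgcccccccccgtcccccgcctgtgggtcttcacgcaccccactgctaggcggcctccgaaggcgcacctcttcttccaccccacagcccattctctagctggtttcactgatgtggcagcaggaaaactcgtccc
Psmb6: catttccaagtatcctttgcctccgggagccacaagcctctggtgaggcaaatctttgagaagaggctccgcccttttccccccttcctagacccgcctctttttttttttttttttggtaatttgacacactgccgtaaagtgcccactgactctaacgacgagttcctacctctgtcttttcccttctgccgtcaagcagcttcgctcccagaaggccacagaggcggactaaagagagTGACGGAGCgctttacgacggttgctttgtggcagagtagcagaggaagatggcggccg
Psmb5: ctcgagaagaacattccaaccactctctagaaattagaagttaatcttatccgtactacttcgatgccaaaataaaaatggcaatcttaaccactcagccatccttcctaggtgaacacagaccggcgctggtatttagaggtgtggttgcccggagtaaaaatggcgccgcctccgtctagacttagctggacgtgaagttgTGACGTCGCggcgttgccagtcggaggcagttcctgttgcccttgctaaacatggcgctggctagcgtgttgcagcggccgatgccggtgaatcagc

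Psmb9 held a CCAAT box as its sole match, read as its reverse complement ATTGG from 8 bases before the start site. Psmb8 held the gamma-activated site TTCCCAGAA, 97 bases before its start site. The promoters of Psmb6 and Psmb5 each held an antioxidant response element core, TGACGGAGC and TGACGTCGC. Of the other immunoproteasome genes, Psme1 held the interferon-stimulated response element core TTTCGCTTTC (as read on the gene's strand). No match was listed for Psmb10 or Psme2, which would also hold if no promoter was found for them. At least 1 promoter was found for 39 of the 46 genes, and a gene counts if any of its promoters holds a match. The share over all promoters is counted per promoter, so member genes with more than 1 promoter had more chances to match. The antioxidant core was in 6 of the 39 (15.4%), against 12.4% of 32851 RefSeq promoters. The interferon-stimulated core was in 5 (12.8%), against 3.44% of all promoters. The gamma-activated site was in 3 (7.69%), against 8.30%, and CCAAT in 13 (33.3%), against 37.4%. The NF-kB consensus was in 6 (15.4%), against 8.46%. Matches to different motifs overlapped in 0 cases in these promoters, and a match describes the letters only.

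As deposited, nearly all proteasome genes were slightly higher in the OX40L-TG-APC library, and Psmb9 and Psmb8 had the highest ratios. The FPKM ratio was above 1 for 43 of 46 members, against 68.3% of all genes. For 36 members the interval of the ratio lay above 1 (48.3% of all genes) and for 2, Psmc5 and Psme3, it lay below 1 (16.9% of all genes). Among genes whose mean FPKM lay in the range of the members, these shares were 50.6% and 16.6%. The members' median in the WT-APC library was 72.8 FPKM, against 13.3 FPKM for all genes and 17.0 FPKM in that range. Intervals narrow as fragments increase, so abundant genes exclude 1 more easily and these counts depend on level. No member reached a 2-fold change in either direction, against 2.26% of all genes higher and 1.33% lower by that much. At a lower mark, 9 members (19.6%) were at least 25% higher, close to the 21.5% of all genes, and none was at least 20% lower (7.13% of all genes), both after 1 FPKM was added. Their median change was 0.23, against 0.11 for all genes, and 38 of 46 lay above that median. With the median ratio of well-expressed genes set to 0, the median of all genes shifted to -0.0021 and that of the members to 0.11, with 37 members above 0 (below were Psma3, Psmc3, Psmc5, Psmd1, Psmd6, Psmd7, Psme3, Psme4 and Psmg2). With the library totals set equal, the members' median was 0.056 and 31 members lay above 0, but 37 still lay above the median of all genes, which was then -0.050. Below 0 under that scaling were the 9 just named and Psma4, Psma7, Psmb10, Psmc4, Psmd11 and Psmd13. No member was in the authors' deposited table of genes that differed.

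**Figure D1:**
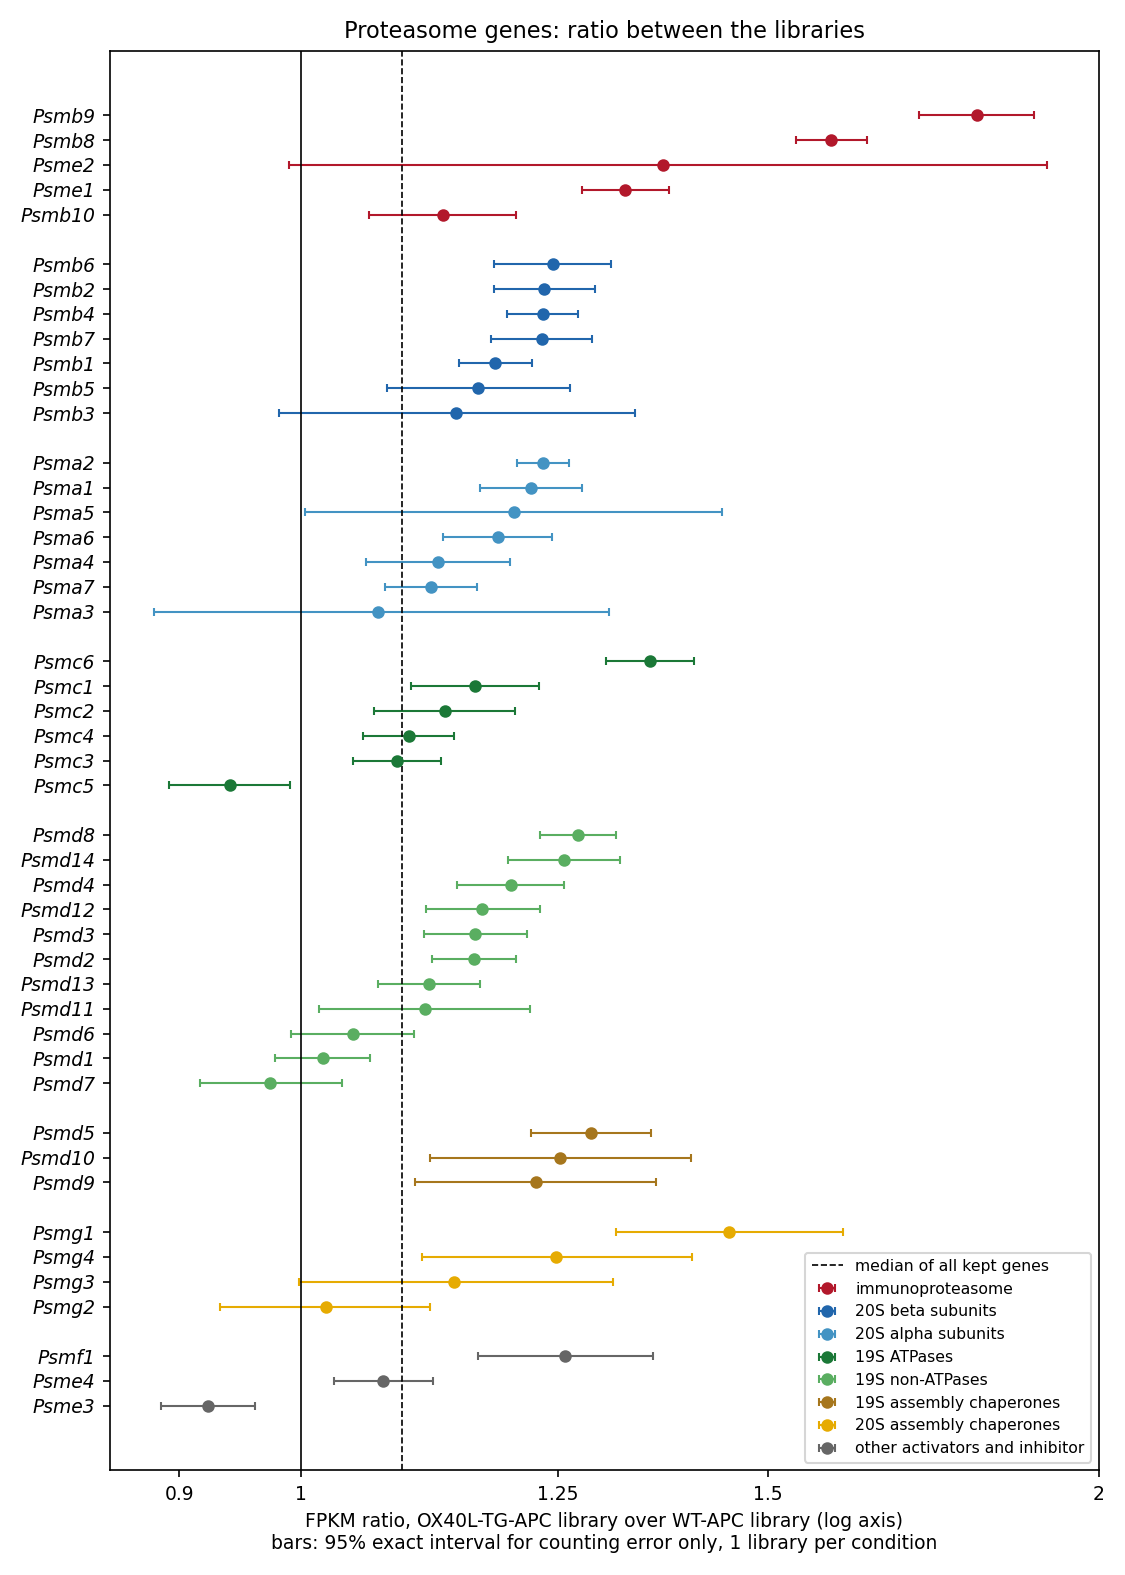
FPKM ratio of each of the 46 proteasome genes, OX40L-TG-APC over WT-APC library, on a log axis, grouped by role, with 95% exact intervals for counting error and 1 library per condition. The solid line marks 1 and the dashed line the median of all kept genes. Psmb9 (1.80) and Psmb8 (1.59) have the rightmost points, though the intervals of Psmg1 and Psme2 reach that of Psmb8, and Psme3 (0.923), Psmc5 (0.9403) and Psmd7 (0.974) lie to the left of 1.

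The 5 immunoproteasome genes were compared with the 31 constitutive subunits. Psmb9, Psmb8, Psme2 and Psme1 were at least 25% higher, and Psmb10 was not. Among the constitutive subunits 3 of 31 (9.68%) were at least 25% higher, and among all genes 21.5%. Psme1 and Psme2 were under that mark with both other scalings. Their changes were 0.28 and 0.26 with the median ratio of well-expressed genes set to 0, and 0.23 and 0.21 with library totals set equal. The median change was 0.40 for the immunoproteasome genes and 0.22 for the constitutive subunits, a difference of 0.19. That difference rested on which genes were counted. It was 0.32 without Psme2, which a minimum of 5 FPKM removes, and 0.10 against Psmb5, Psmb6 and Psmb7 alone. By this change, only Psmb8 and Psmb9 lay above each of the 31 constitutive subunits, the highest of which was Psmc6. By the FPKM ratio without the added 1 FPKM, Psme2 (1.37, interval 0.990 to 1.91) also exceeded Psmc6 (1.35). The summed B cell, myeloid and dendritic cell markers were lower in the library in which these genes were higher, as given above. Single markers differed from their sums, since the dendritic marker Zbtb46 was listed at 0.788 and 0.934 FPKM and the interval of the myeloid marker Fcer1g included 1. The part of these markers in the result was not tested.

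Psmb9 encodes the immunoproteasome subunit that takes the place of the caspase-like Psmb6 (Entrez 16912, chromosome 17, 34182099 to 34187330). It stood at 76.4 FPKM in the WT-APC library and 137 FPKM in the OX40L-TG-APC library, which is a ratio of 1.80 (interval 1.71 to 1.89). This was the highest ratio of the 46, and 96.6% of all genes had a lower change. Psmb8, which replaces the chymotrypsin-like Psmb5 (Entrez 16913, chromosome 17, 34198195 to 34201454), stood at 170 and 269.8 FPKM, with a ratio of 1.59 (interval 1.54 to 1.64). The intervals of these ratios did not overlap each other or that of Psme1 or Psmb10. That of the chaperone gene Psmg1 (1.31 to 1.601) overlapped the interval of Psmb8, and the wide interval of Psme2 (0.990 to 1.91) overlapped both. Psmb10, which replaces the trypsin-like Psmb7 and lies on another chromosome (Entrez 19171, chromosome 8, 105935728 to 105938392), differed far less. It stood at 58.2 and 65.8 FPKM, with a ratio of 1.13 (interval 1.06 to 1.21), below that of Psmb7 itself. With library totals set equal its log2 change was -0.0014, so its direction depended on the scaling.

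The activator genes Psme1 and Psme2 lie side by side on chromosome 14. Psme1 (55578494 to 55585254) stood at 180.6 and 239 FPKM, with a ratio of 1.33 (interval 1.28 to 1.38). Psme2 (55587440 to 55610438) was listed at only 3.19 and 4.36 FPKM, a ratio of 1.37 with an interval of 0.990 to 1.91 that included 1. The proteins of these genes assemble into one ring, yet the listed level of Psme1 was far above that of Psme2. Of the 50-base stretches of the Psme2 transcript, 59.3% also occur in transcripts of its near-identical copy Psme2b, so the Psme2 value is uncertain. The printed Psme2 locus also holds Irf9 and Rnf31.

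**Figure D2:**
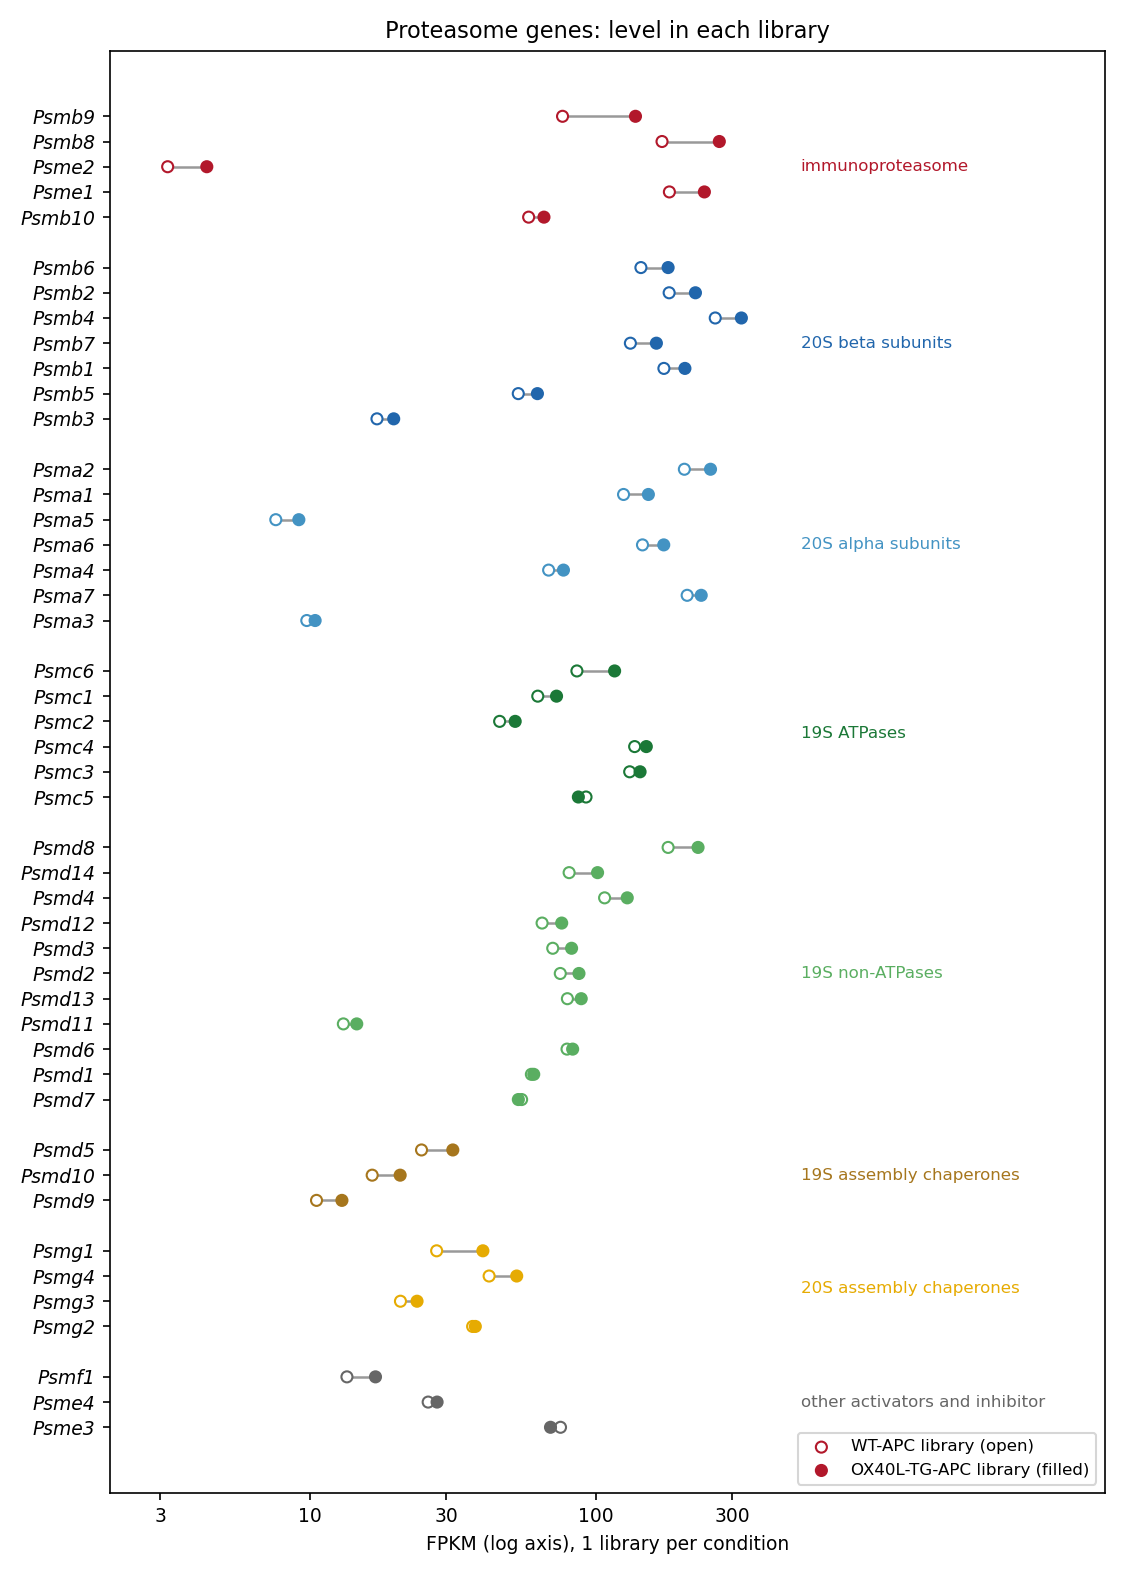
FPKM of each of the 46 proteasome genes in the WT-APC library (open) and the OX40L-TG-APC library (filled) on a log axis, grouped by role. Filled points lie to the right of open ones except for Psmc5, Psmd7 and Psme3, and Psme2 (3.19 and 4.36 FPKM) is the lowest of all.

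The balance between each immunoproteasome catalytic subunit and the subunit it replaces does not depend on how the libraries are scaled. Psmb8 made up 76.1% (74.9 to 77.2) of the summed FPKM of Psmb8 and Psmb5 in the WT-APC library and 81.2% (80.4 to 82.04) in the OX40L-TG-APC library. The share of Psmb9 in the sum with Psmb6 was 34.7% (33.5 to 36.03) and 43.5% (42.4 to 44.5). For these 2 pairs the shares stood 5.14 and 8.74 percentage points higher in the OX40L-TG-APC library. Psmb10 made up 30.6% (29.4 to 31.9) and 28.8% (27.8 to 29.9) of the sum with Psmb7, which was 1.80 points lower, and these intervals overlapped. The ratio of Psmb8 to Psmb5 was 1.36 times (1.248 to 1.48) as high in the OX40L-TG-APC library, and that of Psmb9 to Psmb6 1.44 times (1.35 to 1.55). For Psmb10 to Psmb7 this value was 0.918 (0.849 to 0.991). In both libraries Psmb8 was the more abundant transcript of its pair, whereas Psmb6 and Psmb7 exceeded Psmb9 and Psmb10. Of the 50-base stretches of Psmb5, 57.1% occur in other transcripts, mostly of Gm3375, so the Psmb5 level behind the first share is uncertain. For Psmb7 28.1% occur in transcripts of Nek6, so the Psmb7 level behind the third share is uncertain too.

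**Figure D3:**
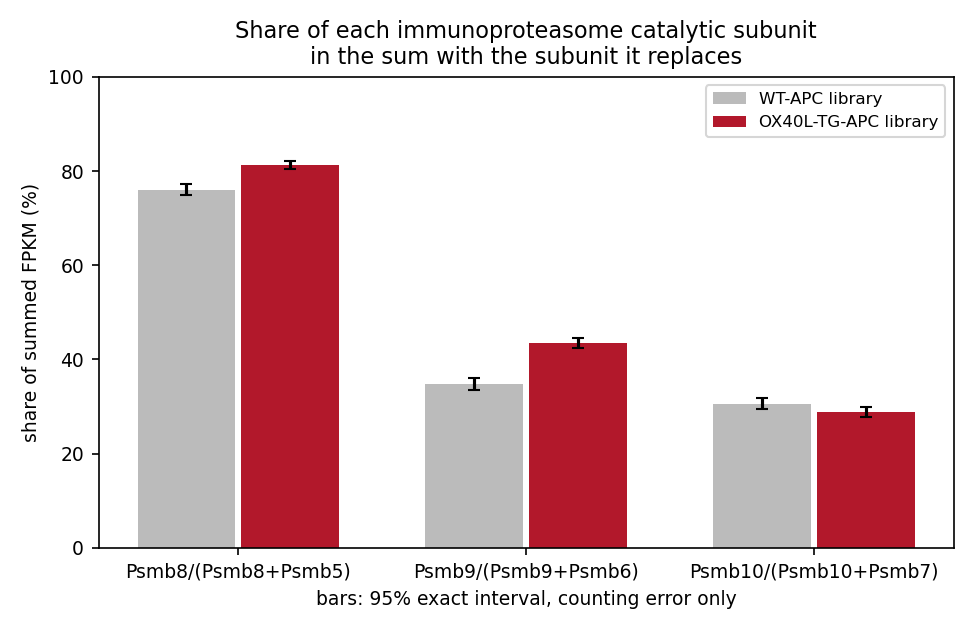
Share of the summed FPKM of each exchanged pair taken by the immunoproteasome subunit, in percent, in the WT-APC library (grey) and the OX40L-TG-APC library (red), with 95% exact intervals for counting error. The share is higher in the OX40L-TG-APC library for Psmb8 (76.1% and 81.2%) and Psmb9 (34.7% and 43.5%) but not for Psmb10 (30.6% and 28.8%).

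The replaced catalytic subunits themselves were slightly higher. Psmb5 stood at 53.5 and 62.4 FPKM, with a ratio of 1.17 (interval 1.08 to 1.26). Psmb6 stood at 143.6 and 178.7 FPKM, with a ratio of 1.24 (interval 1.18 to 1.31). Psmb7 stood at 131.9 and 162.6 FPKM, with a ratio of 1.23 (interval 1.18 to 1.29). The intervals of these 3 ratios overlapped. The structural beta subunits, without a catalytic site, had ratios in the same range. Psmb4 was the most abundant member of all, at 261 and 322 FPKM. Psmb2 stood at 180.2 and 223 FPKM and Psmb1 at 173 and 205 FPKM. Psmb3 was listed far lower, at 17.2 and 19.6 FPKM, with 55.8% of its 50-base stretches found in other transcripts. The ratios of all 7 beta subunits ran from 1.14 to 1.24, and as deposited and under both other scalings each exceeded the all-gene median.

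The alpha subunits form the outer rings, whose tails gate the entrance of the core. All 7 had ratios above 1, from 1.07 to 1.23, with a median change of 0.24. Psma2 (204 and 251.4 FPKM), Psma7 (208 and 233 FPKM), Psma6 (145 and 173 FPKM) and Psma1 (124.8 and 152 FPKM) were abundant. Psma4 stood lower, at 68.3 and 77.0 FPKM. Psma3 (9.76 and 10.4 FPKM) and Psma5 (7.60 and 9.15 FPKM) were listed far below their partners although the ring holds each subunit once. For Psma5 55.4% of the 50-base stretches occur in other transcripts, and for the more abundant Psma4 31.5%. For Psma3 it was 22.0%, taken on a transcript of 2846 bases. The median length of Psma3 transcripts was 859 bases, so this share may be higher for its shorter transcripts and is not comparable with the others. The levels of these 3 genes are uncertain, and the part of shared sequence in the low levels was not tested. The interval of Psma3 included 1 (0.881 to 1.31). With library totals set equal, the changes of Psma3, Psma4 and Psma7 lay below 0.

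The ATPases of the 19S base unfold substrates and thread them into the core. Their median change of 0.16 was the smallest of the 19S groups, and it turned to -0.02 with library totals set equal. Psmc6 stood out at 85.8 and 116 FPKM, with a ratio of 1.35 (interval 1.303 to 1.41), the highest of the 31 constitutive subunits. Psmc5 was the sole ATPase with a lower value in the OX40L-TG-APC library, at 92.3 and 86.8 FPKM, with a ratio of 0.9403 (interval 0.892 to 0.991), and its printed locus also holds Ftsj3 and Gm23645. Their intervals did not overlap, so within the ring the transcripts differed by more than counting error. Between them lay Psmc1 (62.6 and 72.8 FPKM), Psmc2 (46.1 and 52.2 FPKM), Psmc4 (136.5 and 149.9 FPKM) and Psmc3 (131 and 143 FPKM).

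The 11 other 19S subunits include scaffolds, ubiquitin receptors and the deubiquitinase of the lid. Their median change was 0.21, and 0.037 with library totals set equal. Psmd8, a lid subunit, had the highest ratio among them, 1.27 (1.23 to 1.31), at 179 and 227 FPKM. Psmd14, the deubiquitinase that removes the ubiquitin chain, stood at 80.6 and 101.3 FPKM, with a ratio of 1.26 (interval 1.198 to 1.32). Psmd7, the partner with which the deubiquitinase forms a dimer, stood at 54.97 and 53.5 FPKM, with a ratio of 0.974 (interval 0.916 to 1.036) that included 1. The ubiquitin receptor gene Psmd4 stood at 107 and 129 FPKM. The large scaffold subunits were Psmd2 (75.04 and 87.2 FPKM) and Psmd1 (59.5 and 60.6 FPKM). Among the lid subunits stood Psmd3 (70.6 and 82.2 FPKM), Psmd12 (64.8 and 75.9 FPKM), Psmd13 (79.5 and 88.8 FPKM), Psmd6 (79.2 and 82.9 FPKM) and Psmd11 (13.1 and 14.6 FPKM). The intervals of Psmd6 and Psmd1 included 1, and the locus printed for Psmd13 spans 28 other genes.

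**Figure D4:**
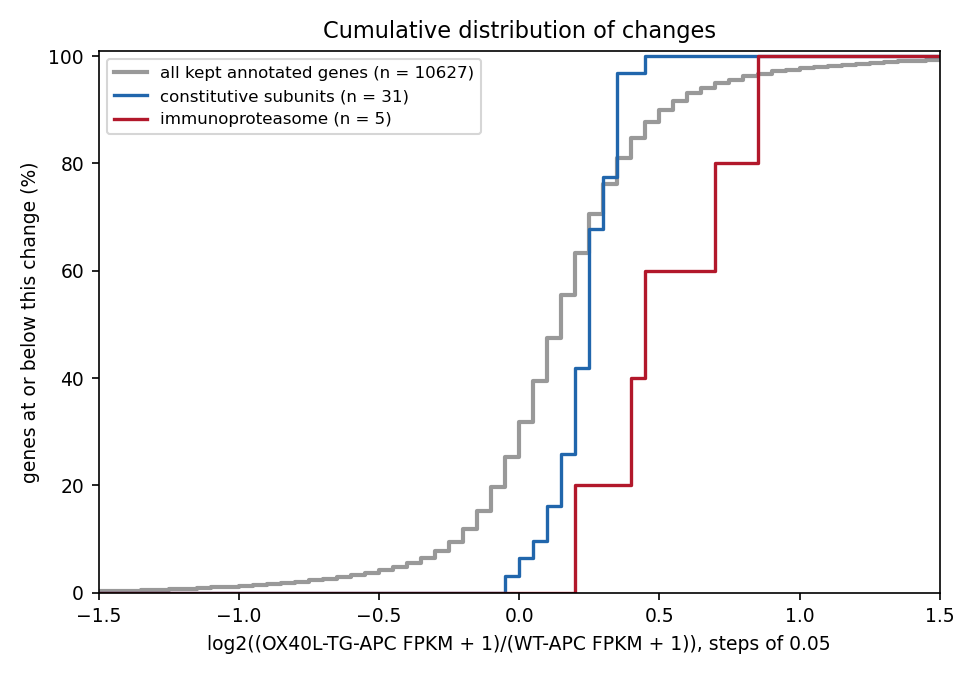
Cumulative percentage of genes at or below each log2 change, in steps of 0.05, for all 10627 kept genes (grey), the 31 constitutive subunits (blue) and the 5 immunoproteasome genes (red). The constitutive subunits climb steeply around their median of 0.22, and the immunoproteasome genes reach up to 0.84 (Psmb9).

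Chaperones that build the particle were compared next. Psmg1, one of the chaperones that assemble the alpha ring, had the third highest ratio of all members, 1.45 (1.31 to 1.601), at 27.7 and 40.3 FPKM. Psmg2, with which it forms a dimer, stood at 37.1 and 37.9 FPKM, with a ratio of 1.02 (interval 0.932 to 1.12) whose interval did not overlap that of Psmg1. Psmg4 (42.3 and 52.8 FPKM) and Psmg3 (20.7 and 23.7 FPKM), the other pair of core chaperones, lay between them. The 3 chaperones of the 19S base were all higher. Psmd5 stood at 24.6 and 31.6 FPKM, with a ratio of 1.29 (interval 1.22 to 1.36), Psmd10, which encodes gankyrin, at 16.5 and 20.7 FPKM, and Psmd9 at 10.6 and 12.9 FPKM. Their median change of 0.31 stayed above 0 under both other scalings (0.19 and 0.14).

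The remaining activators and the inhibitor differed among themselves. Psme3, which encodes the nuclear PA28 ring that is not part of the immunoproteasome, had the lowest ratio of all 46, 0.923 (0.886 to 0.961), at 75.2 and 69.4 FPKM. The intervals of Psme1 and Psme3 lay on opposite sides of 1. Psme4, which encodes the nuclear activator PA200, stood at 25.9 and 27.8 FPKM, a ratio of 1.07. Psmf1, which encodes the proteasome regulator PI31, first described as an inhibitor, stood at 13.5 and 17.0 FPKM, a ratio of 1.26.

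Psmb9 and Psmb8 lie 16096 bases apart, by the starts of their printed loci, within the class II region of the mouse MHC, and the peptide transporter genes Tap1 and Tap2 lie next to them. Tap1 (chromosome 17, 34187556 to 34197225) stood at 75.9 and 118 FPKM, with a ratio of 1.55 (interval 1.496 to 1.61). Tap2 stood at 46.1 and 63.01 FPKM, with a ratio of 1.37 (interval 1.31 to 1.43). The 4 neighbours Psmb9, Tap1, Psmb8 and Tap2 were thus all higher in the OX40L-TG-APC library. The class II genes around them went both ways. H2-Ob (5.84 and 3.02 FPKM), H2-DMb2 (5.70 and 4.29 FPKM) and H2-Aa (58.8 and 25.5 FPKM) were lower. H2-DMa (15.4 and 23.7 FPKM) and H2-Oa (6.15 and 19.9 FPKM) were higher, and the intervals of these 5 excluded 1. The most abundant, H2-Ab1 (92.7 and 98.9 FPKM), was slightly higher, with a ratio of 1.07 (interval 1.01 to 1.12). For H2-DMb1 (3.62 and 3.26 FPKM) the interval included 1. The bromodomain gene Brd2 hardly differed (73.9 and 75.98 FPKM). Psmb9 and Tap1 are transcribed in opposite directions, and 12.5% of the 50-base stretches of Psmb9 occur in Tap1 transcripts, read on either strand. Strand handling is unknown here, so reads in that overlap cannot be assigned to either gene with certainty.

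**Figure D5:**
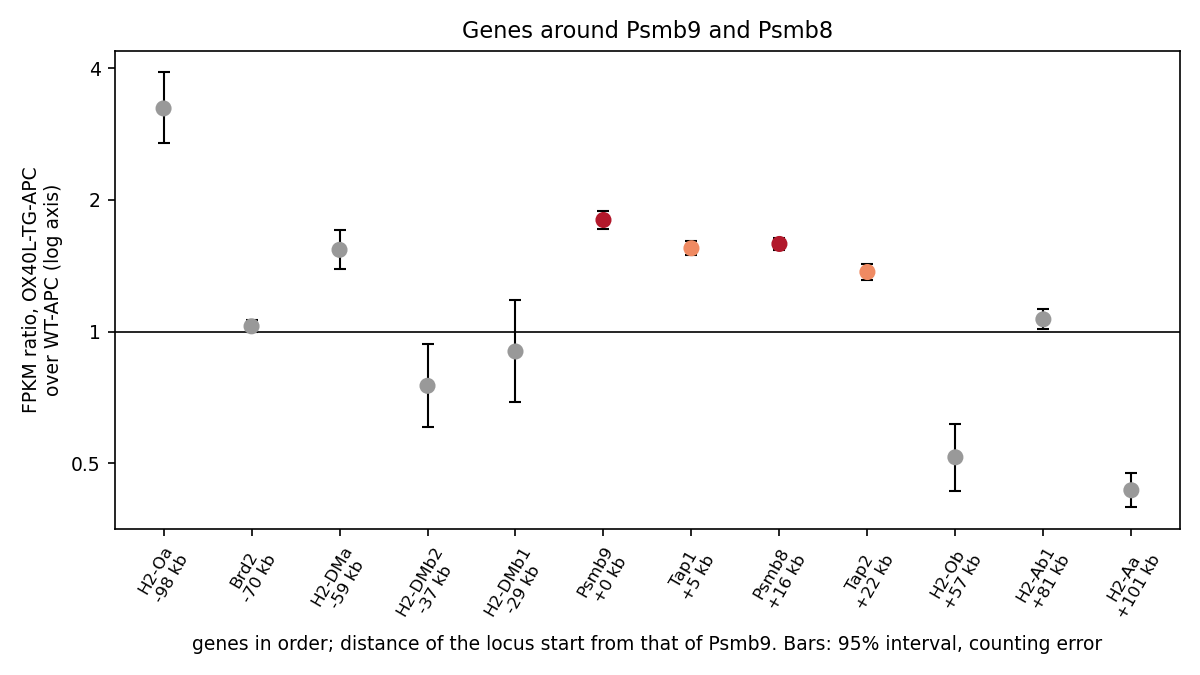
FPKM ratio, OX40L-TG-APC over WT-APC, on a log axis, for genes with at least 1 FPKM within 100000 bases of the Psmb9 and Psmb8 loci, in genomic order, with the distance of each printed locus start from that of Psmb9 and 95% intervals for counting error. Psmb9, Tap1, Psmb8 and Tap2 (1.80, 1.55, 1.59 and 1.37) lie above 1, whereas H2-Ob (0.516) and H2-Aa (0.434) lie below it.

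Genes that supply peptides to MHC class I were described from a list of 11, all of which passed the filter. None reached 2-fold, 6 were at least 25% higher and 1 was at least 20% lower (21.5% and 7.13% of all genes), and the median change was 0.44 (0.32 with the median ratio of well-expressed genes set to 0 and 0.27 with library totals set equal). The class I heavy chain gene H2-K1 was the highest, at 506 and 813 FPKM, with a ratio of 1.61 (interval 1.58 to 1.64). It was followed by Tap1, B2m, the gene of the light chain (853 and 1289 FPKM), the tapasin-related Tapbpl (19.1 and 29.3 FPKM), H2-D1 (351 and 524 FPKM) and Tap2. Of the 50-base stretches 8.79% for H2-K1 and 14.3% for H2-D1, and none for B2m, occur in transcripts of other genes. At the other end stood tapasin, Tapbp, at 81.6 and 61.6 FPKM, with a ratio of 0.754 (interval 0.724 to 0.785). Erap1, the peptidase that trims peptides in the endoplasmic reticulum, stood at 31.5 and 26.9 FPKM.

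Regulators of interferon signalling and of the immunoproteasome genes numbered 12, with a median change of 0.23. The median was 0.13 with the median ratio of well-expressed genes set to 0 and 0.089 with library totals set equal, and under each of these 5 of the 12 lay below 0. Irf8, an interferon regulatory factor of lymphoid and myeloid cells, was at least 2-fold higher, at 28.4 and 64.1 FPKM, with a ratio of 2.26 (interval 2.13 to 2.39). With library totals set equal its log2 change was 0.97, just under the 2-fold mark. Nlrc5, the transactivator of class I genes, stood at 10.04 and 16.7 FPKM, with a ratio of 1.66 (interval 1.56 to 1.77). Irf1, which drives Psmb9 and Tap1 in response to interferon, stood at 55.3 and 68.8 FPKM, with a ratio of 1.24 (interval 1.18 to 1.31). The kinase gene Jak2 (75.6 and 92.9 FPKM), whose product relays the interferon signal, had a ratio of 1.23, while Jak1 stood at 74.5 and 67.2 FPKM and Irf2, an antagonist of Irf1 and the lowest of the list, at 16.6 and 13.95 FPKM. Ifng itself was low in both libraries, at 1.46 and 1.78 FPKM, and its interval included 1. Of the 12, 3 were at least 25% higher (Irf8, Nlrc5 and Ifngr1) and none was at least 20% lower, where 21.5% and 7.13% of all genes were. Ifngr1 (52.6 and 66.2 FPKM) was under that mark with both other scalings, at log2 changes of 0.20 and 0.15. Summed markers of B cells, myeloid and dendritic cells were lower there, and their part in the values of this list and of the class I list was not tested.

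Genes that regulate the constitutive proteasome showed no common direction. Of 7 found, Maff was at least 25% higher (7.34 and 11.6 FPKM) and Ddi2 at least 20% lower (47.8 and 32.1 FPKM, a ratio of 0.672, 0.652 to 0.692). Of all genes, 21.5% were higher and 7.13% lower by that much. Ddi2 encodes the protease that activates Nfe2l1, the factor that raises proteasome genes when the proteasome is impaired. Nfe2l1 stood at 18.0 and 21.3 FPKM and its relative Nfe2l2 at 29.8 and 28.8 FPKM. The list median of 0.04 turned to -0.08 and -0.13 under the other scalings.

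Assembly and associated factors had a median change of 0.17, against 0.22 for the constitutive subunits. It was 0.061 and 0.015 under the other scalings, with 7 of 14 below 0 when library totals were set equal. Of 14 genes 1 was at least 25% higher, the thioredoxin-like proteasome partner Txnl1 (39.9 and 54.6 FPKM), and none was at least 20% lower, against 21.5% and 7.13% of all genes. Under the other scalings Txnl1 was below the 25% mark, at log2 changes of 0.318 and 0.27. The core assembly factor Pomp stood at 230.2 and 256 FPKM, the small 19S subunit Sem1 at 329 and 391 FPKM, and the proteasome deubiquitinases Usp14 and Uchl5 at 18.2 and 21.97 and at 31.8 and 35.9 FPKM. Ublcp1, a phosphatase of the 19S particle, was the lowest, at 7.51 and 5.97 FPKM. The ubiquitin receptor Adrm1 was listed at 5.62 and 5.59 FPKM, with 78.0% of its 50-base stretches found in other transcripts, and is uncertain. For Usp14 this share was 45.3% and for Ublcp1 33.4%, so their levels are uncertain too. Among 11 genes of ubiquitin and of substrate unfolding the median was 0.16, and it turned to -0.01 with library totals set equal. Faf1, a cofactor of the unfolding ATPase Vcp, stood at 12.02 and 16.99 FPKM.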

How the data were processed

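RNA from 2 T cell cultures was sequenced, 1 library per condition. Reads were aligned with TopHat2 and FPKM made with Cuffdiff on mm9, per the submitters' processing notes, and the authors deposited FPKM per gene. Versions, gene models and strand handling: not given in the sources used here. The authors' deposited comparison table, with log2 ratios and p-values, lists no member and gave no value. Printed loci overlapped the GRCm38.p6 RefSeq gene for all 46 members, although the notes name mm9, and coordinates are the table's, with 1 added to each start so that they count from 1. Symbols matched 13030 of 13056 Entrez identifiers.

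With 1 library per condition no test, SE or p-value was computed. A pseudocount of 1 FPKM and a minimum of 1 FPKM in either library were used. Depth was estimated from the FPKM steps of 347 single-transcript genes (under 0.3 FPKM, transcripts of at least 1500 bases). The step ratio was 0.873, at which 66.9% of the genes gave whole-number fragment ratios within 0.2%, against 7.49% at a shifted ratio. Fragments per gene followed from the median RefSeq transcript length in GENCODE M21, without fragment length correction, so intervals (exact Clopper-Pearson, exact conditional for ratios of ratios, SciPy 1.17.1) are rough for short genes. The procedure was tested on counts simulated with the same transcript lengths that it uses. That test therefore could not show errors that come from those lengths. Sequence shared with other genes is the share of 50-base stretches of the longest RefSeq-matched transcript that occur in GENCODE transcripts of other genes, on either strand.

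The members and lists were chosen with earlier results of these data known. Every member is named. The 5 immunoproteasome genes, Psmb5, Psmb6, Psmb7 and the 3 highest and 3 lowest other members were to get ratios with intervals, as were others added after their values were seen. Of other lists, the highest, the lowest and those past 2-fold are named, with regulators added by role, except some genes that are not reported here.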

Additional observations from a re-analysis of the deposited data

How the results depend on the processing

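No alternative produced a member at 2-fold, and the 3 exchange shares kept their direction with a pseudocount and with estimated fragments. The immunoproteasome median of 0.40 became 0.53 with a minimum of 5 FPKM, 0.28 with the median ratio of well-expressed genes set to 0, and 0.23 with totals set equal. It was 0.66 for the catalytic genes Psmb8, Psmb9 and Psmb10 alone. Keeping only members with no other gene at their locus left the same immunoproteasome genes, so it is not a separate check of that value. Its excess over the constitutive subunits (0.19) became 0.32 at 5 FPKM, 0.43 for members alone at their locus and 0.10 against the 3 replaced subunits, and was 0.19 under both scalings. With the median ratio set to 0 the median of all members was 0.11 and that of the constitutive subunits 0.090, and with totals set equal they were 0.056 and 0.039. The count of members at least 25% higher went from 9 to 3 under both scalings (Psmb8, Psmb9 and Psmg1), against 13.1% and 11.0% of all genes. Restricting to the 32 members with under 10% shared sequence, chosen after seeing the data, gave medians of 0.25 for all and 0.24 for constitutive genes. Of the immunoproteasome genes this left only Psmb8 (0.66) and Psmb10 (0.17), and removed Psmb9. Their median of 0.42 is the midpoint of unlike genes, so it is not a check of the value for all 5. No paired analysis was possible because each condition had 1 library. Depth limits Psme2, Psma3 and Psma5, whose intervals are the widest.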

Other observations

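Genes whose symbols begin like those of the subunits but name other proteins were left out of the members. Psmc3ip, a meiotic recombination factor, stood at 9.04 FPKM in the WT-APC library and 11.7 FPKM in the OX40L-TG-APC library, and Psme3ip1, a partner of Psme3, at 27.96 and 30.5 FPKM. At the printed locus of Psme2 (3.19 and 4.36 FPKM) lay 4 features without a gene symbol, which went both ways. They stood at 2.66 and 4.17 FPKM, at 2.43 and 1.47 FPKM, at 0.414 and 0.718 FPKM, and at 0.288 and 0.101 FPKM.

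Genes near the other immunoproteasome genes differed widely among themselves. Within 100000 bases of Psmb10 on chromosome 8, Edc4 (27.05 and 28.1 FPKM) and Slc12a4 (14.9 and 14.8 FPKM) hardly differed, Cenpt had the highest ratio of the kept genes (18.6 and 23.002 FPKM), and Ddx28 (36.2 and 21.7 FPKM) and Dpep2 (2.81 and 0.435 FPKM) were lower. Beside Psme1 and Psme2 on chromosome 14, Irf9, a factor of interferon signalling that shares the printed locus of Psme2, stood at 26.6 and 27.01 FPKM, and Nedd8, a ubiquitin-like modifier, at 202 and 234 FPKM. Larger differences there were those of Pck2 (5.58 and 12.4 FPKM) and Tgm1 (0.0968 and 2.69 FPKM), and Ipo4 had the lowest ratio of the kept genes (13.2 and 11.8 FPKM). These neighbours were chosen after their values were seen.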
